A study of Mus musculus with 29 samples.

Results

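Loss of Dlx3 in adult mouse epidermis was compared with and without a STAT3 inhibitor, and the quantity described here is the difference between those deletion effects, the genotype by inhibitor interaction. It used 15 of the 29 samples of the series, namely all 3-day epidermis RNA-seq libraries. They came from mice of mixed background aged P42 to P46, taken 3 days after tamoxifen. Dlx3 was deleted by a tamoxifen-inducible Cre driven by the keratin 14 promoter (icKO), which acts in basal keratinocytes and their progeny, and the controls are labelled WT. Tamoxifen is in the labels of every group, and the vehicle libraries (4 WT, 4 icKO) and the libraries given the inhibitor (STAT3i, 3 WT, 4 icKO) are so named in the table header. The sources used here do not give the inhibitor's name, dose and route, the alleles of the WT mice or the number of animals behind the libraries, so p-values measure the spread between these libraries, which may in part be technical.

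Dlx3 is a homeobox transcription factor of the upper epidermal layers and the hair follicle. In those layers keratinocytes change their keratins, cross-link a protein envelope beneath the membrane and export ceramides and other lipids that seal the barrier. STAT3 is a transcription factor that cytokine and growth factor receptors activate by phosphorylation. In skin it is known for its part in wound repair, in inflammation and in the growth of keratinocytes.

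Dlx3, the deleted gene, was at 3.04, 0.95, 7.13 and 7.21 RPKM (reads scaled to transcript length and to the reads of the library) in WT libraries a to d and at 1.5, 1.58, 2.22 and 1.29 RPKM in icKO. With STAT3i it was at 6.77, 6.07 and 6.31 RPKM in WT, against 1.01, 1.71, 1.66 and 1.19 RPKM in icKO. The library labelled WT b thus lay below every vehicle icKO library. The icKO minus WT difference of Dlx3 itself was -0.87 ± 0.34 with vehicle (log2, SE, limma adjusted p = 0.107). With STAT3i it was -1.64 ± 0.37 (adjusted p = 0.00483). The fall of the deleted gene thus passed the test with STAT3i and not with vehicle. The interaction of Dlx3 was -0.77 ± 0.51 (log2, SE, limma adjusted p = 0.375). In WT b Krt6b, a keratin of wounded epidermis, was at 89.2 RPKM, while WT a, c and d ranged from 0.817 to 2.92 RPKM. The library labelled icKO c held both the female transcript Xist (7.2 RPKM) and the male transcript Ddx3y (5.88 RPKM). All 3 WT STAT3i libraries and WT a, b and d held Ddx3y without Xist above 1 RPKM, and WT c and the other icKO libraries of both treatments held Xist without Ddx3y, so with the inhibitor genotype and sex cannot be told apart. Between 48.9 and 70.3 M alignments were recorded per library. The basal keratin Krt14 was at 773.5 to 4152.4 RPKM, but Acta1 of skeletal muscle (2184.6 to 5354.9 RPKM) and Col1a1 of fibroblasts (316.3 to 4481.5 RPKM) were also high, so the libraries held tissue other than epidermis. In such bulk samples fewer cells of a type and less RNA per cell cannot be told apart.

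Of 24543 genes, 13563 reached 1 RPKM in at least 3 libraries and were tested with limma on log2(RPKM + 1), a scale that understates the change of low genes. The interaction passed an adjusted p of 0.05 for 290 genes (2.14% of those tested), 99 of them above 0 (0.73%) and 191 below 0 (1.41%). An interaction above 0 means that the icKO minus WT difference was higher with STAT3i than with vehicle. At an unadjusted p under 0.05 there were 3258 genes, and 69 of the 290 had an interaction of at least 1 log2 unit in size. The median over all tested genes was 0.01, and the median standard error was 0.14. The split by direction depended on scaling: 34.1% of the calls were above 0 as deposited, 52.3% after each library was centred on its median and 51.3% after quantile normalization.

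The number of calls rested on single libraries. It fell to 0 without WT STAT3i a or without WT STAT3i c, with 2505 and 2404 genes still at an unadjusted p under 0.05, and it was 12 without icKO a or without icKO b. It rose to 1363 without WT a and to 1700 without WT b. Without WT b and icKO c together it was 1535. It was 122 and 108 without WT c and WT d, 82 and 532 without icKO c and icKO d, 43 without WT STAT3i b and 29 to 54 without a library of icKO STAT3i. In 3 groups a pair of libraries differed by little, with a standard deviation of the log2 difference over genes of 0.107 (icKO a and b), 0.135 (WT STAT3i a and c) and 0.1 (icKO STAT3i a and d), against 0.153 to 0.565 for the other pairs within groups. The WT STAT3i pair stood out little, as the other pairs of that group were at 0.153 and 0.191. Other pairs of icKO were at 0.258 to 0.358 and those of icKO STAT3i at 0.263 to 0.293. With the closest pair of each of these 3 groups averaged, no gene was called. The smallest adjusted p in limma was then 0.286, and 1810 genes had an unadjusted p under 0.05. All 290 genes kept the sign of their interaction under each of the 27 alternative settings. These settings reuse all or most of the libraries in which the genes were selected, so stable signs were likely beforehand. With a sex term, read from Ddx3y at 1 RPKM or more, 17 genes were called. By this reading only WT c and icKO c differed in sex from the rest of their groups, so the term rests on them. The library icKO c, which held both transcripts, counted as male.

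**Figure D1:**
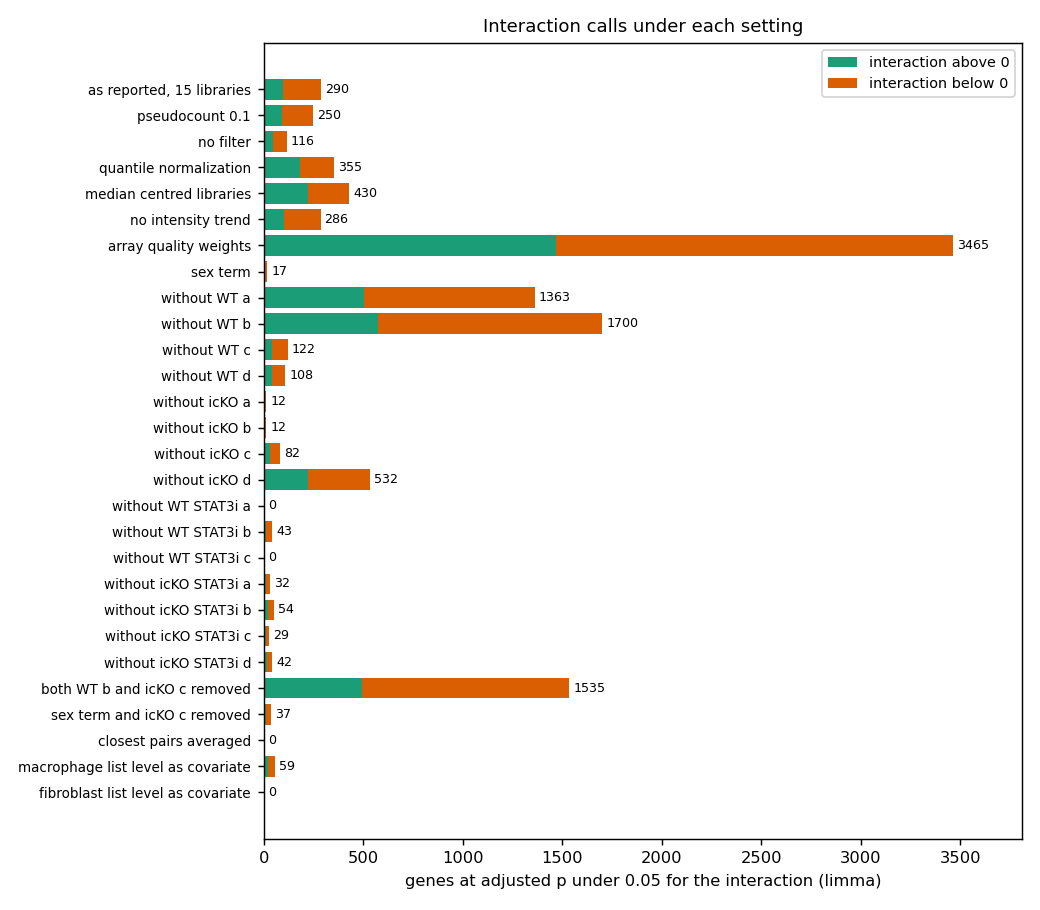
Number of genes called for the interaction (horizontal axis, adjusted p under 0.05 in limma) under each setting (rows), split into genes above 0 (green) and below 0 (orange). The 290 genes of the 15 libraries as deposited lie between 0 calls without WT STAT3i a or c and 3465 calls with weighted libraries.

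Most called genes had a deletion effect that passed the test with the inhibitor and not without it. In 254 of the 290 the icKO against WT difference was called with STAT3i and, with vehicle, was either not called (232 genes) or called, of the same sign and smaller (22 genes), and these are referred to as enlarged. For the 232 the sign of the vehicle effect was not considered, so the name does not say that an existing effect grew. The estimate went from 0.24 with vehicle to 1.55 with STAT3i for Dsc1, but from 0.82 to -1.12 for Cd209a. The deletion effect of Dlx3 itself was also called with STAT3i and not with vehicle, although its interaction was not called. Whether this bears on the 232 genes was not tested. In 23 the vehicle effect was called and the effect with STAT3i was not, and these are referred to as vehicle-only. A missing call is not an effect of 0: with STAT3i the 23 effects ranged from -1.28 to 0.15 log2 units, 22 had the opposite sign to the vehicle effect, and 9 had an unadjusted p under 0.05. In the other 13 both effects were called with opposite signs, and these are referred to as reversed. Without WT b the classes held 947, 497 and 156 of 1700 called genes, and 100 had neither effect called. Without WT b and icKO c they held 685, 624 and 176 of 1535, and 50 had neither effect called. In these other settings the vehicle-only class also takes in genes whose effect with STAT3i was called, of the same sign and smaller. Among all tested genes the deletion effect was called for 1794 (13.2%) with vehicle, 58 of which (3.23%) also had an interaction. With STAT3i it was called for 4530 (33.4%), 267 of which (5.89%) also had an interaction.

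**Figure D2:**
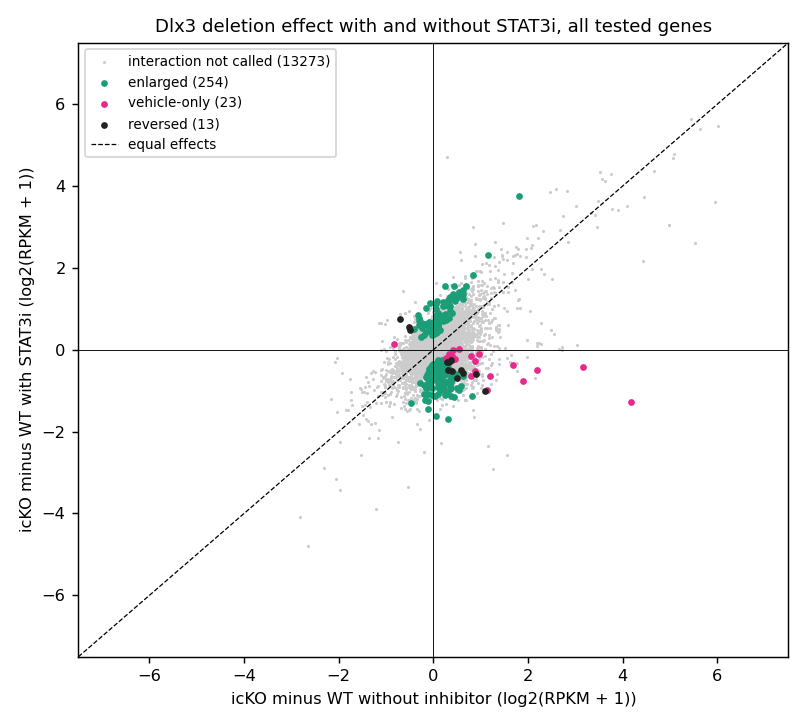
Deletion effect with STAT3i (vertical axis) against the effect with vehicle (horizontal axis), both icKO minus WT in log2(RPKM + 1), for each of the 13563 tested genes. The 254 enlarged genes (green) lie mostly near 0 on the horizontal axis, the 23 vehicle-only genes (pink) lie between -1.28 and 0.15 on the vertical axis, and the 13 reversed genes (black) in the quadrants of opposite sign.

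The inhibitor effect itself was called for different numbers of these genes in WT and in icKO, a difference in counts that was not tested. Among the 290, the STAT3i against vehicle difference was called in WT for 215 and in icKO for 74. Of the 99 genes above 0, 69 fell in WT and 27 rose in icKO. Of the 191 genes below 0, 146 rose in WT and 47 fell in icKO. Over all tested genes 7.45% fell and 10.5% rose in WT (18% in all), and 2.77% rose and 2.78% fell in icKO (5.55%). These contrasts use the same libraries as the interaction, so the counts are a description only. The vehicle WT libraries also differed among themselves in these genes: WT a and b both lay above WT c and d for 116 of the 191 genes below 0 (60.7%), against 23.4% of all tested genes.

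Genes of keratinocyte differentiation and of the lipid barrier were among the enlarged genes above 0. Of 29 tested members of the list of spinous and granular layer genes, 6 were called above 0 and none below. Among all tested genes 0.73% and 1.41% were so called. The median interaction of this list was 0.67, and 27 of its members had an estimate above 0. The 6 were the suprabasal keratin Krt10 (0.99), the desmosomal cadherin Dsc1 (1.31), the envelope cross-linking enzyme Tgm1 (0.74), the transcription factors Ovol1 (0.94) and Grhl3 (0.86), and the desquamation protease Klk5 (0.94). With vehicle 11 members of this list rose in icKO and 2 fell, where 9.42% and 3.8% of all tested genes did so. With STAT3i 22 rose and 3 fell, against 19.4% and 13.9% of all tested genes. In the lipid barrier list 5 of 24 members were called above 0 and none below. Its median interaction was 0.4, and 21 members had an estimate above 0. The 5 called were the lipoxygenase Alox12b (0.79), the dehydrogenase Sdr9c7 (1.14) that acts after it on ceramides, the lipid transporter Abca12 (0.88), the ceramide synthase Cers3 (0.91) and the lipase cofactor Abhd5 (0.59). Over the same list the deletion effect had a median of 0.26 with vehicle and 0.75 with STAT3i. Without WT b, 13 and 11 members of these lists were called above 0, where 4.25% of all tested genes were. With the 3 close pairs averaged none were, at medians of 0.68 and 0.42. With a sex term none were either, at medians of 0.59 and 0.35, and with the fibroblast level as a covariate none, at 0.48 and 0.31. With the macrophage level as a covariate 0 and 1 were, at medians of 0.57 and 0.29. With the sex term the adjusted p was 0.0544 for Alox12b, 0.0738 for Sdr9c7 and 0.0817 for Tgm1. Estimates above 0 were not particular to the spinous and granular and lipid barrier lists. The basal layer and adhesion list had a median interaction of 0.44, with 14 of 15 members above 0 and 1 called. The serpins and stefins list had one of 0.57 (9 of 14 above 0, 1 called). The adipocyte list had one of 0.39 (13 of 13 above 0, 0 called).

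Alox12b makes the hydroperoxides of linoleate-bearing ceramides, and its gene lies on chromosome 11 (mm10, 69156989 to 69169792, plus strand). It stood at 34.3, 30.4, 31.7 and 31.2 RPKM in WT, against 36.5, 36.4, 33.9 and 30.1 RPKM in icKO. Under the inhibitor it was at 22.4, 22.6 and 22.5 RPKM in WT, against 43.1, 48.7, 35.8 and 43.4 RPKM in icKO. The vehicle groups overlapped, whereas the WT STAT3i libraries lay below all others. The deletion effect was 0.09 ± 0.09 (log2, SE) with vehicle (adjusted p = 0.469) and 0.89 ± 0.09 with STAT3i (adjusted p = 5.31e-05). Their difference of 0.79 ± 0.13 had an adjusted p of 0.0215 and stayed between 0.73 and 0.88 over the alternatives.

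Sdr9c7 showed the same order of groups. It was at 21.3, 19.0, 20.4 and 23.9 RPKM in WT, against 30.7, 30.5, 22.9 and 31.6 RPKM in icKO, and with STAT3i at 11.8, 12.2 and 12 RPKM in WT, against 35.3, 50.7, 32.0 and 34.5 RPKM in icKO. All icKO STAT3i libraries were above, and all WT STAT3i libraries below, every vehicle library. The deletion effect went from 0.43 ± 0.13 (adjusted p = 0.0465) to 1.57 ± 0.14 (adjusted p = 2.48e-05), an interaction of 1.14 ± 0.19 (SE, adjusted p = 0.0251).

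Tgm1, on chromosome 14 (55700009 to 55713926, minus strand), already rose in vehicle icKO. Its level was 23.0 ± 1.19 RPKM in WT, against 36.2 ± 4.95 RPKM in icKO (SD, n = 4 each). With STAT3i it was 18.4 ± 0.805 RPKM in WT (SD, n = 3) and 49.0 ± 4.91 RPKM in icKO (SD, n = 4). No library of one group overlapped another group in this gene. The deletion effect was 0.62 ± 0.09 with vehicle and 1.36 ± 0.1 with STAT3i, and the interaction was 0.74 ± 0.14 (log2, SE, adjusted p = 0.0313). Grhl3 followed the same course, from 0.55 ± 0.12 to 1.41 ± 0.13 (interaction adjusted p = 0.0376).

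The promoter windows of Sdr9c7, Cers3 and Tgm1 (RefSeq, GRCm38.p6, 250 bases before to 50 after the start) are shown because these enlarged barrier genes hold letters that match the binding motifs of STAT or DLX factors. Capitals mark the STAT motif TTCNNNGAA, the homeodomain motif TAATTG and the interferon response motif (GAAA, any 2 bases, GAAA), each searched on both strands. Sdr9c7 (chr10:127898285-127898584, plus strand) holds the STAT letters at -219 and the homeodomain letters at -67 from the start. Cers3 (chr7:66743254-66743553, plus strand) holds the homeodomain letters at -205. Tgm1, at the upstream of its listed starts (chr14:55713443-55713742, minus strand), holds the STAT letters at -173 and -64 and the interferon letters at -242.
Sdr9c7: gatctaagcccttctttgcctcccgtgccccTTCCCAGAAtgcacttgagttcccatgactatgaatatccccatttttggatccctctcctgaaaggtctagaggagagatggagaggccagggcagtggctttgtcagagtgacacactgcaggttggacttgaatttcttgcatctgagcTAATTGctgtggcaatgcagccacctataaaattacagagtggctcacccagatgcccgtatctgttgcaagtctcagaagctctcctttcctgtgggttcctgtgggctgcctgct
Cers3: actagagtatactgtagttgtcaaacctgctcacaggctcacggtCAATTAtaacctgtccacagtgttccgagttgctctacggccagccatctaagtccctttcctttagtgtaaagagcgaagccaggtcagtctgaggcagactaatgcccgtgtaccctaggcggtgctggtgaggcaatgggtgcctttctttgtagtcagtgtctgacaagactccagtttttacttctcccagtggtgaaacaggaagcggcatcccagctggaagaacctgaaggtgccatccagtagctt
Tgm1: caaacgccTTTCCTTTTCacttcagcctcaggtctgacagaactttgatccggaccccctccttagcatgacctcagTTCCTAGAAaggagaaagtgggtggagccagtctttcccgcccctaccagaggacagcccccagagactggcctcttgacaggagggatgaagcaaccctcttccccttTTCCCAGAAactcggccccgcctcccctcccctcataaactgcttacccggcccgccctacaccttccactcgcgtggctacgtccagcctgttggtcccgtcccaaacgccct

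Matches among the called genes were set beside those of all promoters. A promoter was listed for 10410 of the 13563 tested genes, and 8.2% of these held the STAT letters, 5.67% the homeodomain letters and 3.79% the interferon letters. Of the genes above 0, 9 of 79 (11.4%) held the STAT letters, 6 (7.59%) the homeodomain letters and 3 (3.8%) the interferon letters. Of the genes below 0, 14 of 147 (9.52%) held the STAT letters, 5 (3.4%) the homeodomain letters and 11 (7.48%) the interferon letters. Among the called barrier genes the STAT letters were in 1 of 5 promoters of the lipid barrier list and in 1 of 4 of the spinous and granular list, and the homeodomain letters in 2 of 5 and none of 4. None of the motifs was in the windows of Abca12, Abhd5, Alox12b, Grhl3, Klk5 and Krt10 or at the other listed start of Tgm1. These shares are descriptions, and a match is not a binding site.

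A few envelope, antimicrobial and growth factor genes were also among the enlarged genes. Called above 0 were 1 of 36 tested members of the late envelope list (Lce3f), 2 of 20 of the antimicrobial and alarmin list (Defb14 and Wfdc5) and 1 of 11 of the EGF family list (Ereg). Among all tested genes 0.73% were. The antimicrobial list had a median interaction of -0.16, with 9 of its 20 members above 0, and the EGF family list one of 0.23. Lce3f, a late cornified envelope gene on chromosome 3 (92992226 to 92993426, plus strand), was at 0.229, 0.623, 0 and 0.0387 RPKM in WT, against 4.57, 4.23, 2.11 and 2.43 RPKM in icKO. The STAT3i values were 0.507, 0.27 and 0.516 RPKM in WT, against 13.5, 32.4, 21.0 and 12.2 RPKM in icKO. Neither pair of groups overlapped, and the interaction of 1.96 ± 0.4 (adjusted p = 0.0377) was the largest above 0. Lce3a to Lce3e also had estimates above 0, from 0.74 to 1.4, but none of them passed. Lce3f was thus the only one of 36 late envelope genes tested to pass. The median of that list was -0.06, with 18 estimates above 0. Over the list the deletion effect had a median of 2.05 with vehicle (23 members rose, 3 fell, against 9.42% and 3.8% of all tested genes) and 1.79 with STAT3i. Defb14, a beta-defensin, went from a deletion effect of 1.16 ± 0.16 to 2.32 ± 0.17 (interaction adjusted p = 0.038). Reads of Lce3f, Ces2g and other members of multigene families could be split between near-identical copies, and the sources used here do not say how this was done.

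For several other genes the effect was called with STAT3i only. The protease inhibitors Serpinb2 (1.19 ± 0.27) and Wfdc5 (1.17 ± 0.22), the EGF receptor ligand Ereg (1.08 ± 0.24), the carboxylesterase Ces2g (1.2 ± 0.21), the laminin-binding integrin Itga3 (0.76 ± 0.14), the immediate early factor Egr3 (0.68 ± 0.15) and Fam89a (0.95 ± 0.14) had adjusted interaction p-values of 0.0139 to 0.0439. Each of the 7 fell with STAT3i in WT, by 0.48 to 0.92 log2 units. In icKO their estimates were all above 0, from 0.16 (Ereg) to 0.72 (Ces2g), and only that of Ces2g was called. Ereg, for example, was at 2.05, 2.87 and 2.48 RPKM in WT STAT3i against 4.72 to 6.64 RPKM in vehicle WT. In icKO it was at 3.91 to 6.72 RPKM with vehicle and 5.22 to 8.37 RPKM with STAT3i, ranges that overlap.

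**Figure D3:**
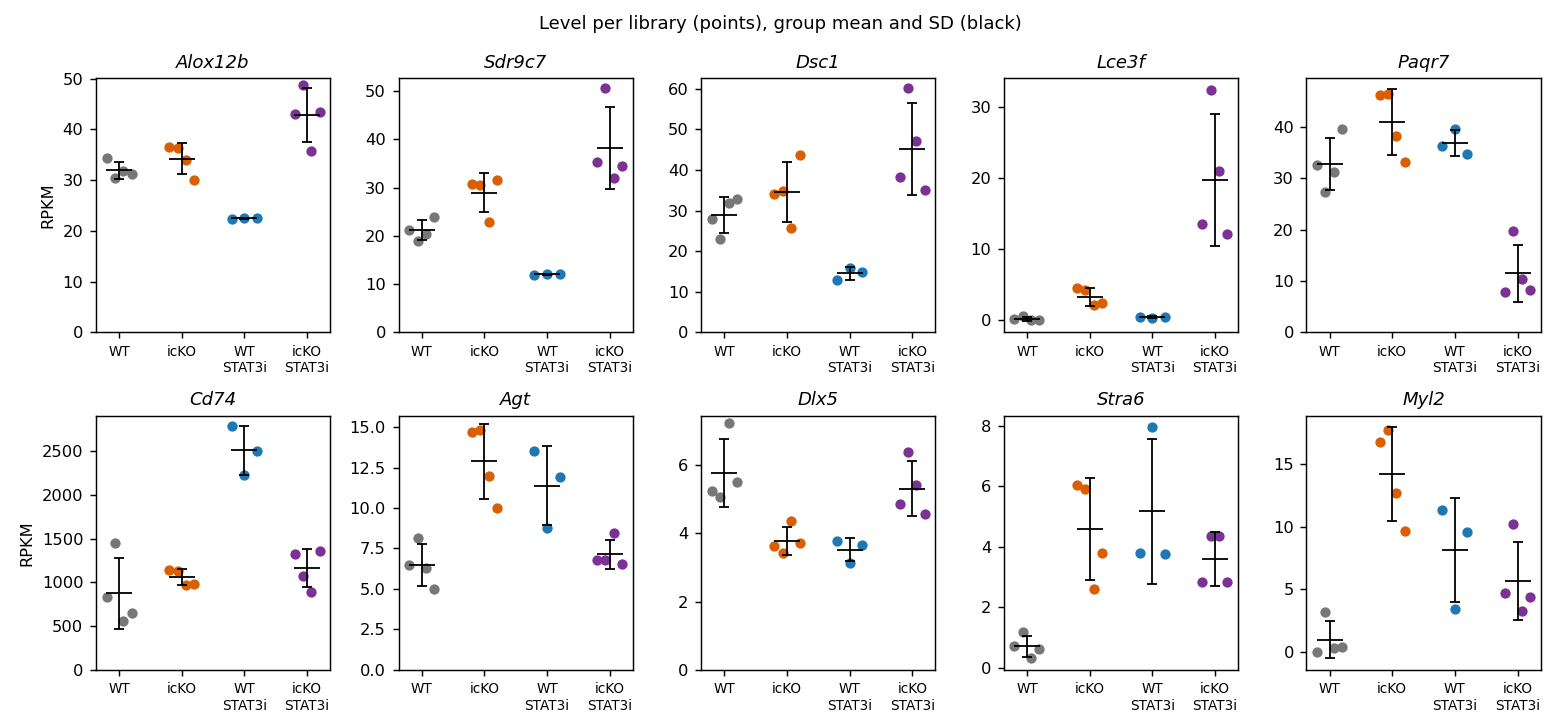
RPKM of 10 genes in each library (points) of the 4 groups (horizontal axis), with the group mean and SD in black (n = 4, or 3 for WT STAT3i). For Alox12b, Sdr9c7 and Dsc1 the WT STAT3i libraries are lowest and the icKO STAT3i libraries highest on average, while for Cd74 the WT STAT3i libraries stand above all others.

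The enlarged genes below 0 were led by Paqr7, which encodes a membrane progestin receptor and lies on chromosome 4 (134496697 to 134510235, plus strand). It was at 32.6, 27.4, 31.3 and 39.6 RPKM in WT, against 46.1, 46.3, 38.2 and 33.2 RPKM in icKO. Given STAT3i, it reached 36.2, 39.6 and 34.8 RPKM in WT, against 7.86, 19.7, 10.4 and 8.17 RPKM in icKO. The icKO STAT3i libraries lay below all other libraries, and the other 3 groups overlapped. The deletion effect was 0.31 ± 0.22 with vehicle (adjusted p = 0.343) and -1.69 ± 0.24 with STAT3i (adjusted p = 0.000296), an interaction of -2 ± 0.32 (adjusted p = 0.0215). In contrast to most of the genes below 0, Paqr7 did not pass for the inhibitor in WT (0.18 ± 0.24, adjusted p = 0.63) and in icKO it fell by 1.82 ± 0.22 with the inhibitor (adjusted p = 0.000838).

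Antigen presentation genes took the other form, being high in WT STAT3i. Cd74, the invariant chain of MHC class II, was at 829.8, 1454.3, 559.8 and 648.1 RPKM in WT, against 1140.4, 1130.2, 968.2 and 985.9 RPKM in icKO. In the STAT3i libraries it read 2790.5, 2231.4 and 2505.8 RPKM in WT, against 1321.9, 1076.4, 893.6 and 1354.6 RPKM in icKO. The icKO levels of both treatments lay within the range of vehicle WT, and the WT STAT3i libraries were above every other one. The interaction was -1.5 ± 0.35 (adjusted p = 0.0471). The class II chain H2-Aa (-1.32 ± 0.3, adjusted p = 0.0443) and the class II activator Ciita (-1.06 ± 0.25, adjusted p = 0.048) were also highest in WT STAT3i, and no other member of the 16 in the Langerhans and antigen presentation list passed (median -0.96). Cd207, the Langerhans cell lectin, had an interaction of -0.65 ± 0.25 (adjusted p = 0.133). Cd209a, a lectin of dermal phagocytes, had one of -1.94 ± 0.4 (adjusted p = 0.038).

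Markers of phagocytes and fibroblasts also varied between libraries. The macrophage list (18 genes, median interaction -1.51, none called) had a mean level in log2(RPKM + 1) of 5.75 and 5.92 in WT a and b but 3.85 and 4.02 in WT c and d. It was 5.47 to 5.73 in icKO, 6.06 to 6.24 in WT STAT3i and 5.46 to 5.75 in icKO STAT3i. The fibroblast list (18 genes, median -0.86, none called) was at 5.93 in WT c and at 6.46 to 7.6 in the other libraries. With the macrophage level as a covariate the interaction of Cd74 was -0.84 (adjusted p = 0.148). That of H2-Aa was -0.75 (limma adjusted p = 0.132), so neither passed. In this setting 59 genes were called, 31 of them among the 290. Over all settings the interaction of H2-Aa lay between -0.75 and -1.61. With the fibroblast level as a covariate no gene was called in limma, with 1783 at an unadjusted p under 0.05. Alox12b was at 0.82 (adjusted p = 0.0437) with the macrophage level and at 0.88 (adjusted p = 0.0657) with the fibroblast level. Without WT b, 13 of the 18 macrophage genes and 11 of the 16 antigen presentation genes were called below 0, where 8.29% of all tested genes were, and without it the effects of Cd74, H2-Aa, Ciita and Cd209a counted as reversed.

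**Figure D4:**
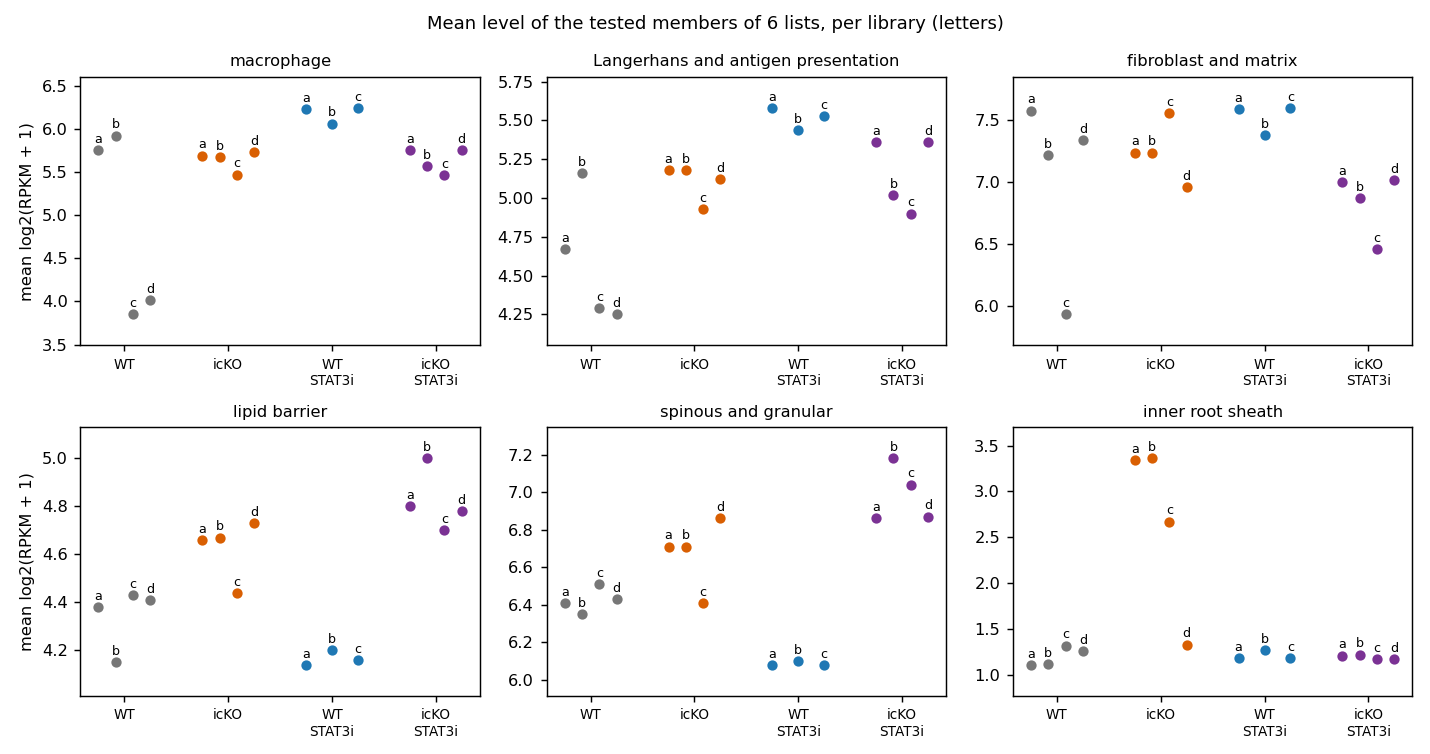
Mean level in log2(RPKM + 1) of the tested members of 6 gene lists (vertical axes) in each library, lettered a to d within its group (horizontal axis). WT a and b lie well above WT c and d for the macrophage list, and WT STAT3i lies below the other groups for the spinous and granular list.

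Other enlarged genes below 0 had no single role. The 4 with the lowest adjusted p-values were the sialyltransferase gene St3gal4 (-0.73 ± 0.09, adjusted p = 0.0108), the receptor kinase gene Grk3 (-0.74 ± 0.1), the endosomal Wdfy2 (-0.96 ± 0.13) and the tetraspanin gene Tspan4 (-0.85 ± 0.12). St3gal4 was at 18.8 to 21.4 RPKM in WT, 19.0 to 20.7 RPKM in icKO and 25 to 29.2 RPKM in WT STAT3i, and it was at 16.1 to 16.3 RPKM in icKO STAT3i. The vehicle groups thus overlapped, and the inhibitor groups lay on either side of them. Each of these 4 genes passed in 23 of the 27 alternative settings, as did Fam89a, Mkl1 and Agt, and no named gene passed in more. Angptl1 (-1.66 ± 0.34), the lysosomal sulfatase Arsb (-1.59 ± 0.34) and Rassf2 (-1.52 ± 0.34) were high in WT STAT3i, and their vehicle WT levels were higher in libraries a and b than in c and d. Of 16 tested retinoid genes (median -0.18) 3 were called below 0, where 1.41% of all tested genes were. They were the retinol uptake receptor Stra6, the reductase Dhrs3 (-0.74 ± 0.18) and the retinoic acid hydroxylase Cyp26b1 (-0.7 ± 0.17).

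The vehicle-only effects were nearly all rises of vehicle icKO, 22 of 23. Stra6 was at 0.744, 1.18, 0.327 and 0.618 RPKM in WT, against 6.05, 5.91, 2.6 and 3.8 RPKM in icKO. With STAT3i it was at 3.81, 7.94 and 3.76 RPKM in WT, against 2.85, 4.37, 4.36 and 2.83 RPKM in icKO. The vehicle groups were apart and the inhibitor groups overlapped, and in WT the gene rose with STAT3i by 1.8 ± 0.27 log2 units (adjusted p = 0.0029). The deletion effect was 1.67 ± 0.25 with vehicle (adjusted p = 0.00299) and -0.38 ± 0.27 with STAT3i (adjusted p = 0.302), an interaction of -2.05 ± 0.37 (adjusted p = 0.0296).

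The gut hormone gene Pyy had the largest interaction in size among the called genes, -5.45 ± 1.19 (adjusted p = 0.0409). It was at 0.743, 30.0, 0.721 and 1.24 RPKM in WT, against 123.9, 126.2, 51.1 and 25.4 RPKM in icKO, and with STAT3i at 41.0, 52.2 and 33.0 RPKM in WT, against 25.2, 6.94, 16.5 and 24.7 RPKM in icKO. Its deletion effect was 4.17 ± 0.81 with vehicle and -1.28 ± 0.88 with STAT3i (adjusted p = 0.279), and in the inhibitor groups all WT libraries lay above all icKO libraries. WT b was above vehicle icKO d, and without WT b the interaction was -6.46 (adjusted p = 0.00243).

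Myl2, Myh7 and Tnnc1, genes of slow skeletal muscle fibres, were among the vehicle-only genes with the largest interactions. Myl2 was at 0, 3.16, 0.323 and 0.402 RPKM in WT, against 16.7, 17.7, 12.7 and 9.64 RPKM in icKO, and with STAT3i at 11.3, 3.4 and 9.6 RPKM in WT, against 4.7, 10.2, 3.27 and 4.4 RPKM in icKO. Its interaction was -3.57 ± 0.64 (adjusted p = 0.0296), and those of the myosin gene Myh7 (-2.68 ± 0.62, adjusted p = 0.0459) and the troponin gene Tnnc1 (-2.65 ± 0.61, adjusted p = 0.0452) were similar. None of the 20 members of the skeletal muscle list passed (median -0.15), but Myl2, Myh7 and Tnnc1 are not in that list. Its level therefore does not cover these slow-fibre genes. The mean level of that list was 8.13 to 8.74 in WT, 7.88 to 8.76 in icKO, 8.05 to 8.18 in WT STAT3i and 7.3 to 8.23 in icKO STAT3i, so the groups overlapped in that list.

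Mgl2, a lectin of dermal phagocytes, was at 68.2, 109.8, 24.6 and 34.7 RPKM in WT, against 124.7, 129.2, 85.6 and 113.3 RPKM in icKO, and with STAT3i at 200.3, 186.5 and 197.2 RPKM in WT, against 114.3, 79.8, 85.1 and 117.3 RPKM in icKO. The vehicle groups overlapped, and the inhibitor groups were apart with WT higher. Its deletion effect was 1.13 ± 0.34 with vehicle (adjusted p = 0.0439) and -0.99 ± 0.37 with STAT3i (adjusted p = 0.0534), an interaction of -2.12 ± 0.5 (adjusted p = 0.0472), and without WT b it counted as reversed (-2.49, adjusted p = 0.00465). The mast cell tryptase Tpsb2 had a deletion effect of 0.8 ± 0.15 with vehicle and -0.15 ± 0.16 with STAT3i (interaction adjusted p = 0.0471). The only vehicle-only fall was that of the MHC class I-like gene H2-M9, with a deletion effect of -0.83 ± 0.16 with vehicle and 0.15 ± 0.17 with STAT3i (interaction adjusted p = 0.0471). Inner root sheath genes of the hair follicle had a median interaction of -1.47 over 7 tested members. Only 1 of them passed, the transcription factor Trps1 (-0.5 ± 0.09, adjusted p = 0.0296), which counted as enlarged. The mean level of this list was 3.34, 3.36 and 2.67 in icKO a to c and 1.33 or less in all other libraries.

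Reversed effects were 10 from higher to lower and 3 from lower to higher. With a sex term no gene counted as reversed. Agt, the angiotensinogen gene on chromosome 8 (124556534 to 124569706, minus strand), was at 6.47, 8.15, 6.31 and 5.02 RPKM in WT, against 14.7, 14.8, 12 and 10 RPKM in icKO. Under the inhibitor it was at 13.5, 8.74 and 11.9 RPKM in WT, against 6.76, 6.76, 8.44 and 6.54 RPKM in icKO. The groups did not overlap under either treatment, in opposite orders. The deletion effect was 0.89 ± 0.15 with vehicle (adjusted p = 0.00479) and -0.59 ± 0.16 with STAT3i (adjusted p = 0.0142), and the interaction was -1.48 ± 0.22 (adjusted p = 0.0173). Both single-genotype inhibitor effects passed, a rise of 0.72 ± 0.16 in WT and a fall of 0.76 ± 0.15 in icKO. With a sex term the interaction of Agt was -1.5 (limma adjusted p = 0.0475), and the gene counted as vehicle-only.

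Dlx5, a homeobox gene of the same family as Dlx3, lies on chromosome 6 (6877805 to 6882085, minus strand) and was reversed the other way. It was at 5.24, 5.06, 7.24 and 5.51 RPKM in WT, against 3.63, 3.41, 4.35 and 3.72 RPKM in icKO. The STAT3i values were 3.77, 3.13 and 3.67 RPKM in WT, against 4.87, 6.39, 5.41 and 4.57 RPKM in icKO. Again the groups did not overlap under either treatment. The deletion effect was -0.49 ± 0.11 (adjusted p = 0.0133) with vehicle and 0.47 ± 0.12 (adjusted p = 0.00802) with STAT3i, an interaction of 0.97 ± 0.16 (adjusted p = 0.0222). With a sex term the interaction of Dlx5 was 0.92 (limma adjusted p = 0.0734), and the gene passed in 18 of the 27 alternative settings. Plac8 (1.46 ± 0.29) and the acyltransferase Mboat2 (1.07 ± 0.23) were the other genes reversed upwards.

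The remaining reversed genes named here went from a rise to a fall. They were the phagocyte lectin Cd209e (-2.1 ± 0.44), the transcription factor Sox4 (-1.18 ± 0.21), Olfm1 (-1.2 ± 0.27), the transporter Abcg3 (-1.07 ± 0.19), the ganglioside activator Gm2a (-0.9 ± 0.16), the SRF coactivator Mkl1 (-0.81 ± 0.12), the collagen hydroxylase P4ha1 (-0.61 ± 0.11) and the interleukin 1 receptor Il1r1 (-0.57 ± 0.13), with adjusted p-values of 0.0139 to 0.0431. For Gm2a and Mkl1 the WT rose with STAT3i while icKO did not pass (0.02 ± 0.11 and -0.08 ± 0.08). Sox4 and P4ha1 fell in icKO, and their WT values did not pass (0.43 ± 0.15 and 0.18 ± 0.08).

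Many large deletion effects had no called interaction. Stat3 itself was at 38.1, 39.1, 34.2 and 29.2 RPKM in WT, against 49.8, 49.2, 42.9 and 47.5 RPKM in icKO. Given STAT3i, it reached 37.2, 39.3 and 38.3 RPKM in WT, against 61.0, 51.6, 48.0 and 61.1 RPKM in icKO. It rose in icKO under both treatments, and the interaction was 0.09 ± 0.15 (95% interval -0.22 to 0.4, adjusted p = 0.739). Of 41 tested genes of the STAT3-linked list, 12 rose and 1 fell in vehicle icKO, where 9.42% and 3.8% of all tested genes did so. With STAT3i 17 rose and 8 fell, against 19.4% and 13.9% of all tested genes. The interaction passed for 1 member, the interleukin 22 receptor chain Il22ra1 (0.9 ± 0.19, adjusted p = 0.038), at a list median of -0.13. Socs3, a feedback inhibitor of STAT3 signalling, had an interaction of 0.58 ± 0.27 (adjusted p = 0.212). Its STAT3i against vehicle difference was -0.27 ± 0.2 in WT (limma adjusted p = 0.364) and 0.31 ± 0.19 in icKO (limma adjusted p = 0.312). Over the STAT3-linked list the median of that difference was 0.07 in WT and 0.01 in icKO. Whether the inhibitor lowered STAT3 activity in these libraries was not tested.

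Stress keratins and alarm cytokines were likewise not called. Krt6b was at 478.1, 481.3, 206.2 and 541.6 RPKM in icKO and 540.4, 1336.1, 492.4 and 554.7 RPKM in icKO STAT3i, and at 18.9, 8.19 and 17.8 RPKM in WT STAT3i. Its interaction of -0.55 ± 1.37 had a 95% interval of -3.5 to 2.4, which admits large differences in either direction. Without WT b and icKO c it was -2.16 (adjusted p = 0.0295), and with the macrophage level as a covariate 1.8. Krt16 gave -0.31 ± 1.13, or -1.66 (adjusted p = 0.0347) without those libraries. Il1f6, the gene of interleukin 36 alpha, had a deletion effect of 1.46 ± 0.23 with vehicle and 1.41 ± 0.24 with STAT3i, and an interaction of -0.06 ± 0.33 (interval -0.77 to 0.66). Il1b had one of -0.78 ± 0.23 (adjusted p = 0.0754), and without WT b one of -0.92 (adjusted p = 0.0162).

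Krt1, the partner of Krt10, lay just outside the threshold with an interaction of 1.4 ± 0.34 (adjusted p = 0.0507), and it passed in 7 of the 27 alternative settings, among them without WT b (1.31, adjusted p = 0.0323). It was at 861.3 to 1139.7 RPKM in WT, 1039.2 to 2809.7 RPKM in icKO, 712.6 to 823.5 RPKM in WT STAT3i and 3193.4 to 4634.6 RPKM in icKO STAT3i. The icKO STAT3i libraries lay above every other library. Lor, the gene of the envelope protein loricrin, fell in icKO under both treatments (by 1.44 ± 0.27 and by 0.91 ± 0.29), and its interaction was 0.54 ± 0.4 (adjusted p = 0.439).

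Interferon-stimulated genes had called deletion effects with STAT3i only, but the difference between the treatments did not pass. With vehicle a rise in icKO was called for none of the 35 (9.42% of all tested genes) and with STAT3i for 22 (19.4% of all). None passed the interaction, whose list median was 0.63. The list stood at 3.78, 3.69 and 3.75 in icKO STAT3i a, c and d but at 2.58 in b, and at 3.13 and 2.92 in WT a and b against 2.04 and 2.02 in c and d. Isg15 followed it, with 51.4, 8.28, 22.5 and 55.4 RPKM in icKO STAT3i and an interaction of 1.71 ± 0.73 (adjusted p = 0.173). Of 32 cell cycle genes, 22 rose in icKO with vehicle (9.42% of all tested genes did) and 29 with STAT3i (19.4% of all), and none was called for the interaction (median 0.2). Chemokine genes (23 tested, median -0.45), glucocorticoid-responsive genes (20, median -0.55) and NRF2 targets (21, median 0.34) also held no called member.

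**Figure D5:**
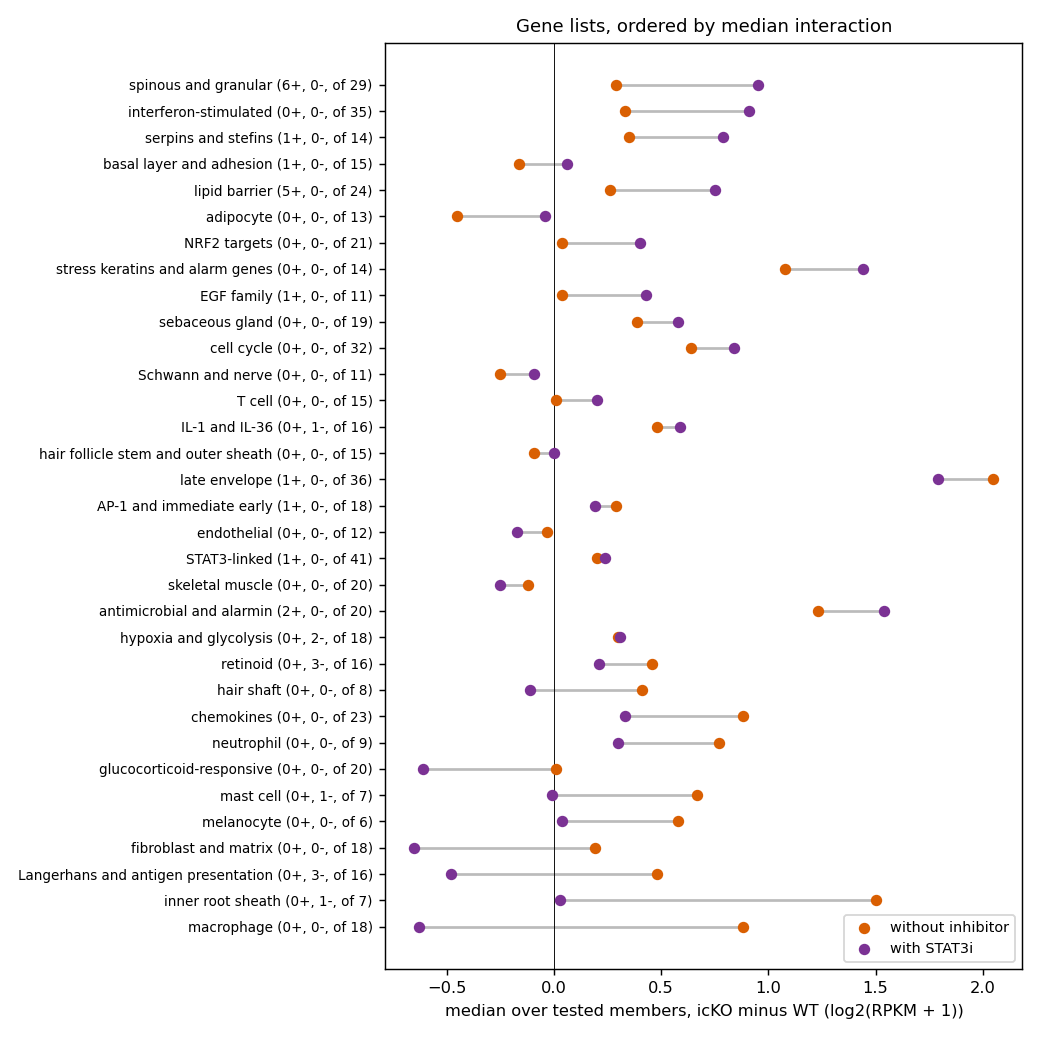
Median deletion effect of the tested members of 33 gene lists with vehicle (orange) and with STAT3i (purple), as icKO minus WT in log2(RPKM + 1) on the horizontal axis. Row labels give the members called for the interaction above 0 (+) and below 0 (-) and the number tested. Of the lists, 18 held none, and the spinous and granular list had the highest count, 6 of 29.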

How the data were processed

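RNA was sequenced from 15 day 3 epidermis libraries (WT 4, icKO 4, WT STAT3i 3, icKO STAT3i 4), one of the tables deposited for 29 samples; the other tables were not used here. Per the labels' protocols, NEBnext reagents were used for complementary DNA and NuGen reagents for the libraries. Per the file headers, the authors mapped reads to mm10 with TopHat and deposited RPKM per gene computed in Partek; TopHat2 2.1.0 is named in the submitters' processing notes. The sources used here do not give strand, the handling of shared reads or any pooling. The columns name a group and no replicate, so libraries were lettered a to d, as names only.

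The deposited RPKM values were analysed as log2(RPKM + 1) for genes at 1 RPKM or more in at least 3 libraries. One limma 3.58.1 fit (R 4.3.3) of 4 group means, with empirical Bayes moderation and an intensity trend, gave the interaction and the 4 simple contrasts, with Benjamini-Hochberg adjustment over all tested genes and 0.05 as the threshold. The steps were tested on simulated data. Values after ± are SE for log2 differences and SD for RPKM, and intervals are 95%. Recorded depth was 48.9 to 70.3 M alignments; counts were not used.

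Genes were named by rule: 11 fixed genes, the 6 largest interactions per class and direction, the 6 smallest adjusted p-values, and up to 3 called members of each of 33 lists. Krt10, Ovol1, Klk5, Cers3 and Abhd5 are named outside it as list members, and the printed promoters were chosen after their motifs were seen. The comparison, its genes and the lists, written from general knowledge, were chosen with earlier results of these data known. The alternatives were another pseudocount, filter, scaling and moderation, library weights, a sex term, and each library left out. The removal of WT b and icKO c (also with a sex term), averaged close pairs, and the macrophage and fibroblast covariates were chosen after seeing the data.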

Additional observations from a re-analysis of the deposited data

Results flagged for a closer look

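In 14 cases a named gene had a library far from the other 3 of its group, a gap that chance alone gives in about 1 in 20 groups. Many named genes were searched, so chance alone would give some such cases. Among the vehicle icKO libraries, c stood apart for Wdfy2 (1.05 RPKM), Sdr9c7 (22.9 RPKM), Cyp26b1 (37.0 RPKM), Isg15 (9.27 RPKM), Krt6b (206.2 RPKM) and Krt16 (289.8 RPKM), and d for Ereg (3.91 RPKM). In icKO STAT3i, library b stood apart for Wfdc5 (18.2 RPKM), Grhl3 (63.3 RPKM), Krt6b (1336.1 RPKM) and Krt16 (1702.0 RPKM), and c for Agt (8.44 RPKM). Among the WT libraries d stood apart for Ces2g (10.1 RPKM) and b for Pyy (30.0 RPKM). Their part in the interactions of these genes was measured only by leaving each library out.

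The deletion effect differed between the treatments by the interaction test in limma for 52 of the named genes. Above 0, in log2(RPKM + 1), these were Lce3f (1.96), Plac8 (1.46), Dsc1 (1.31), Ces2g (1.2), Serpinb2 (1.19), Wfdc5 (1.17), Defb14 (1.16), Sdr9c7 (1.14), Ereg (1.08), Mboat2 (1.07), H2-M9 (0.98), Dlx5 (0.97), Fam89a (0.95), Il22ra1 (0.9), Abca12 (0.88), Grhl3 (0.86), Alox12b (0.79), Itga3 (0.76), Tgm1 (0.74) and Egr3 (0.68). Below 0 they were Pyy (-5.45), Myl2 (-3.57), Myh7 (-2.68), Tnnc1 (-2.65), Mgl2 (-2.12), Cd209e (-2.1), Stra6 (-2.05), Paqr7 (-2), Cd209a (-1.94), Angptl1 (-1.66), Arsb (-1.59), Rassf2 (-1.52), Cd74 (-1.5), Agt (-1.48), H2-Aa (-1.32), Olfm1 (-1.2), Sox4 (-1.18), Abcg3 (-1.07), Ciita (-1.06), Wdfy2 (-0.96), Tpsb2 (-0.95), Gm2a (-0.9), Tspan4 (-0.85), Mkl1 (-0.81), Pfkfb3 (-0.76), Grk3 (-0.74), Dhrs3 (-0.74), St3gal4 (-0.73), Cyp26b1 (-0.7), P4ha1 (-0.61), Il1r1 (-0.57) and Trps1 (-0.5). With the 3 close pairs of libraries averaged, none of the 52 passed.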

How the results depend on the processing

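No paired analysis was possible because the table's columns carry no replicate numbers. Leaving out 1 library at a time gave 0 to 1700 called genes (0 to 576 above 0, 0 to 1124 below 0), 0 to 1024 enlarged, 0 to 497 vehicle-only and 0 to 156 reversed genes; all 6 counts were 0 without WT STAT3i a or c, vehicle-only genes were also 0 without icKO a or b and without icKO STAT3i a, c or d, and the highest counts came without WT a (enlarged) or WT b (the others). Counts are given next in the order called, above 0, below 0, enlarged, vehicle-only, and reversed. As reported they were 290, 99, 191, 254, 23 and 13. Without a filter they were 116, 46, 70, 100, 7 and 9, with library weights 3465, 1470, 1995, 2384, 631 and 365, and with a sex term 17, 3, 14, 15, 1 and 0. Without WT b and icKO c they were 1535, 496, 1039, 685, 624 and 176, and with a sex term and without icKO c 37, 14, 23, 23, 9 and 0. With the macrophage covariate they were 59, 23, 36, 56, 0 and 3. With averaged close pairs, and with the fibroblast covariate, all 6 were 0, at smallest adjusted p-values of 0.286 and 0.0657 in limma. Quantile normalization gave 182 genes above 0, and median centring 225 above 0 and 383 enlarged. The cause of these shifts was not tested; the alternatives with fewer libraries also have fewer degrees of freedom. A pseudocount of 0.1 (250 called, 246 of them shared) and moderation without the trend (286, 279 shared) moved no count by over 1.5 times.

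None of the named genes that were called changed sign, which was likely beforehand because the settings reuse the libraries that selected them. Among those not called, Il1f6 was at 0.08 with quantile normalization, 0.05 with averaged pairs, 0.48 with the macrophage covariate and -0.24 to 0.12 with a library left out. Krt6b was at 1.8 and 0.21 with the macrophage and fibroblast covariates and at -1.84 to 0.04 with a library left out. Krt16 was at 1.75 and 0.2 with those covariates and at -1.35 to 0.2 with a library left out. Lor was at -0.29 with the macrophage covariate, and Stat3 at -0.01 without WT b and icKO c. Recorded depth was 48.9 to 70.3 M alignments; counts were not used, so what depth limits was not tested.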
